A study of Arabidopsis thaliana with 24 samples.

Results

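Roots of Arabidopsis thaliana, accession Col-0, were compared after 24 h and after 0.5 h in 300 mM mannitol, with 2 arrays at each time, so 4 of the 24 arrays of the series carried the comparison. All plants were 16 days old, grew on rafts over Murashige and Skoog medium under 16 h days, and received the mannitol 3 h after lights on. The root samples at 0.5 h therefore fell 3.5 h after lights on and those at 24 h fell 3 h after lights on of the next day, so the compared times lay about a day apart at nearly the same position in the day. Every group was in mannitol and no untreated plants enter the comparison. A difference therefore covers a day in mannitol together with a day of growth. The labels do not say whether replicates came from separate cultures or how many plants were pooled, so p-values measure the spread between these samples only.

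Mannitol is a sugar alcohol that plants take up and use poorly, and at high concentration it lowers the water potential of the medium. Roots facing such a medium lose turgor, slow their elongation and division, and adjust the solutes, walls and proteins of their cells; the hormone abscisic acid drives many of these changes. Root cells depend on sugars delivered from the shoot, and when carbon runs short plant cells turn to amino acids, lipids and the contents recycled by autophagy as fuel. The functional lists below follow these roles, from fuel supply through protection to growth.

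Signals are linear intensities in array units, and differences are changes of log2(signal + 8) between the group means at 24 h and 0.5 h, with the standard error of limma. A probe set was called at a limma adjusted p under 0.05 over the 16814 probe sets tested. Of these, 6878 were called in roots (40.9%), 2871 of them higher (17.1%) and 4007 lower (23.8%), with 1074 (6.39%) and 1248 (7.42%) changed by at least 2-fold. The lower count was 2621 without roots 0.5 h replicate 2, and with a pseudocount of 32 in place of 8 the falls of at least 2-fold numbered 603. The median change over all tested probe sets was -0.08. The balance of directions depended on scaling: median scaling of the arrays moved that median to 0.05, and 3717 were then higher and 2728 lower. Both arrays of one time lay above both of the other for 74.2% of the probe sets tested.

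The 4 root arrays had median signals of 48.3 and 48.3 at 0.5 h and of 43.8 and 42.6 at 24 h, and their 3' to 5' signal ratio for GAPDH, a sign of RNA integrity, was 1.1 and 1.11 at 0.5 h and 1.42 and 1.25 at 24 h. The same ratio for actin was 10.01 and 12.1 at 0.5 h and 11.8 and 12.8 at 24 h, so the times overlapped in it. The part of RNA integrity in the results was not tested. PYK10, the main beta-glucosidase of root endoplasmic reticulum bodies, had a mean signal of 3277 ± 307 (SD, n = 2) in roots at 0.5 h against 947 ± 114 (SD, n = 2) in shoots, so the arrays labelled root carried the higher level of this root gene. The reference genes PEX4 (AT5G25760), AT2G28390, AT5G46630 and GAPC2 changed by between -0.12 and -0.04, and none of the 4 was called; their median was -0.07, and 0.08 under median scaling. In these bulk samples fewer cells of a type and less RNA per cell cannot be told apart.

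The functional lists held 972 genes with probe sets of their own, of which 802 were tested. Over all probe sets tested 17.1% rose and 23.8% fell, and the counts within lists are to be set against these shares. The lists and their members were chosen with earlier results of these data known. Their counts and medians therefore describe these genes and give no independent support. Ranks were taken among the tested probe sets that name 1 gene, 9206 in number. Among the 40 genes with the largest rises there and the 40 with the largest falls, 13 and 11 had a name beyond a locus number. Within ranks 11 to 40 these were 10 genes that rose and 7 that fell, and all of them are described under their functions. Where a list is said to hold no gene that rose or none that fell by limma, that count was 0 at an unadjusted p under 0.05 as well, apart from 1 lower gene of the NRT1/PTR family.

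**Figure D1:**
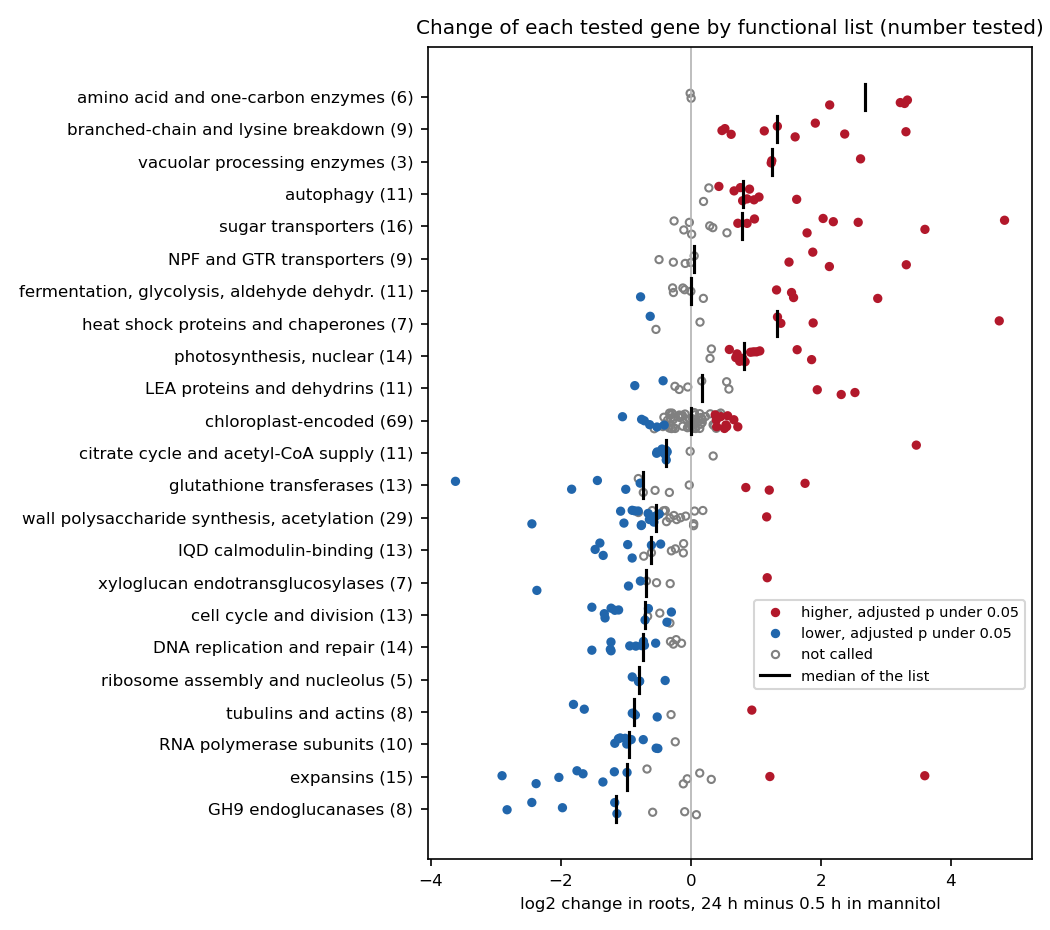
Each point is the log2 change in roots between 0.5 h and 24 h in mannitol of 1 tested gene, grouped by functional list, with the number of genes tested in parentheses, filled points called by limma and a bar at the list's median. Lists of amino acid breakdown, autophagy, sugar transport and heat shock have their called genes mostly right of 0, and lists of wall loosening, tubulin, division and RNA synthesis mostly left of it.

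Genes for amino acid breakdown were higher in roots after a day in mannitol. All 9 tested genes for breakdown of branched-chain amino acids and lysine rose, with a median change of 1.33, where 17.1% of all probe sets rose. The largest rise was that of AT4G33150, which encodes LKR/SDH, the bifunctional enzyme that starts lysine breakdown. Its signal was 106 and 122.9 at 0.5 h and 1264 and 1150.1 at 24 h, a change of 3.31 ± 0.16 (SE; adjusted p = 4.2e-10), and the groups lay far apart. IVD (AT3G45300), for isovaleryl-CoA dehydrogenase of leucine breakdown, read 91.4 and 104 at 0.5 h and 459 and 625 at 24 h and rose by 2.37 ± 0.24 (adjusted p = 1.4e-06). MCCA and MCCB, the subunits of methylcrotonoyl-CoA carboxylase in the same pathway, moved from 96.2 and 121 to 391 and 472 and from 159 and 169 to 467 and 568, rises of 1.91 ± 0.33 and 1.60 ± 0.25. The other 5 genes, among them those for the electron transfer flavoproteins that pass electrons from these dehydrogenases to respiration, rose by between 0.48 and 1.33.

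Enzymes that open other amino acids or handle single carbons rose too. Of 6 tested genes 4 rose, each by more than 2-fold, and the list's median was 2.68. FDH (AT5G14780), for mitochondrial formate dehydrogenase, had signals of 46.0 and 55.4 at 0.5 h and 692 and 487 at 24 h and rose by 3.33 ± 0.25 (adjusted p = 5.5e-08). MGL (AT1G64660), for methionine gamma-lyase, which cleaves methionine, read 39.6 and 58.1 at 0.5 h and 549 and 532 at 24 h and rose by 3.29 ± 0.21 (adjusted p = 1.4e-08). GAT1_2.1, annotated as a glutamine amidotransferase, went from 21.8 and 62.6 to 328 and 537 (3.22 ± 0.56, adjusted p = 0.00022); its 0.5 h arrays lay apart by more than 2-fold, yet well below the 24 h arrays. DELTA-OAT (AT5G46180), for ornithine aminotransferase, which links arginine breakdown to proline and glutamate, stood at 131 and 89.6 at 0.5 h and 575 and 443 at 24 h and rose by 2.14 ± 0.19. The 2 members not called were ATBCAT-5, a branched-chain aminotransferase gene (0.00 ± 0.12), and CPNIFS (-0.01 ± 0.16), for a plastid cysteine desulfurase. Asparaginase B1, encoded by ASPGB1 (AT3G16150), releases ammonium from asparagine; its signals were 156 and 199 at 0.5 h and 519 and 571 at 24 h, a rise of 1.58 ± 0.28 (adjusted p = 0.00026).

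Sugar transporter genes rose without a fall among them. Of 16 tested (21 named), 9 were higher, 6 of them by at least 2-fold, and none was lower, with a median of 0.79. SAG29 (AT5G13170), also known as SWEET15, a sucrose exporter, had signals of 15.1 and 21.9 at 0.5 h and 732 and 745 at 24 h (4.83 ± 0.32, adjusted p = 2.4e-08), and the 24 h arrays agreed closely. SWEET13 (AT5G50800), for another sucrose exporter, read 31.9 and 35.5 at 0.5 h and 493 and 503 at 24 h and rose by 3.6 ± 0.29 (adjusted p = 1.2e-07). SWEET2 (AT3G14770), whose product sits in the vacuolar membrane of root cells and limits sugar loss, moved from 58.5 and 59.5 to 408 and 375 (2.57 ± 0.24). TMT2 (AT4G35300), for a vacuolar importer of monosaccharides, moved from 62.7 and 48 to 282 and 277 (2.19 ± 0.17), whereas its relative TMT1 was not called (-0.11 ± 0.14, adjusted p = 0.58). Among the vacuolar fructose carriers SWEET16 was at -0.26 ± 0.16 and SWEET17 at 0.01 ± 0.13, both not called. The median of the list was 0.47 with a pseudocount of 32 and 1.38 with the stricter filter on low signal.

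Carbon metabolism was split by gene. ICL (AT3G21720), for isocitrate lyase of the glyoxylate cycle, which turns acetyl units from lipid into sugar precursors, had signals of 38.1 and 16.9 at 0.5 h and 347 and 389 at 24 h, a rise of 3.47 ± 0.28 (adjusted p = 1.5e-07). PPDK (AT4G15530), for pyruvate orthophosphate dikinase, which makes phosphoenolpyruvate from pyruvate, read 48.9 and 39.7 at 0.5 h and 387 and 362 at 24 h and rose by 2.88 ± 0.21. The lipase gene SDP1 (AT5G04040), whose product opens storage triacylglycerol, rose by 1.17 ± 0.16, from 117 and 117 to 283 and 263. It was the only gene tested on its list of storage lipids. Of 11 genes for fermentation, glycolysis and aldehyde dehydrogenases, 4 rose and 1 fell, with a median of -0.00. Beside PPDK, these were ALDH7B4 (1.58 ± 0.24), a turgor-responsive aldehyde dehydrogenase gene, PDC2 (1.55 ± 0.29), for pyruvate decarboxylase, and ALDH11A3 (1.32 ± 0.23), which was at 0.80 without roots 24 h replicate 1. The member that fell was ALDH22A1 (-0.77 ± 0.15).

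Genes for the citrate cycle and for acetyl-CoA supply moved little and downward, ICL apart. Of 11 tested, 8 were lower, none by 2-fold, with a median of -0.38. The falls named by size were ACLA-2 (-0.53 ± 0.18) and ACLB-1 (-0.52 ± 0.10), for subunits of ATP-citrate lyase, MDH (-0.45 ± 0.16), for malate dehydrogenase, and MAB1 (-0.43 ± 0.13), for a pyruvate dehydrogenase subunit. ACLA-3 (-0.01 ± 0.14) and ICDH (0.34 ± 0.16) were not called. Most of these falls rested on scaling and on single arrays. Under median scaling 1 of the 8 was called. Without roots 0.5 h replicate 1 and without roots 0.5 h replicate 2 there were 3 each, and without roots 24 h replicate 1 there were 2. ACLA-2 was at -0.33 (adjusted p = 0.264) without roots 0.5 h replicate 2 and at -0.30 (adjusted p = 0.292) without roots 24 h replicate 1. MDH was called in none of the 4 fits that left out an array (adjusted p 0.0784 to 0.131), and MAB1 missed it when roots 0.5 h replicate 1 or roots 24 h replicate 1 was left out (0.109 and 0.142).

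**Figure D2:**
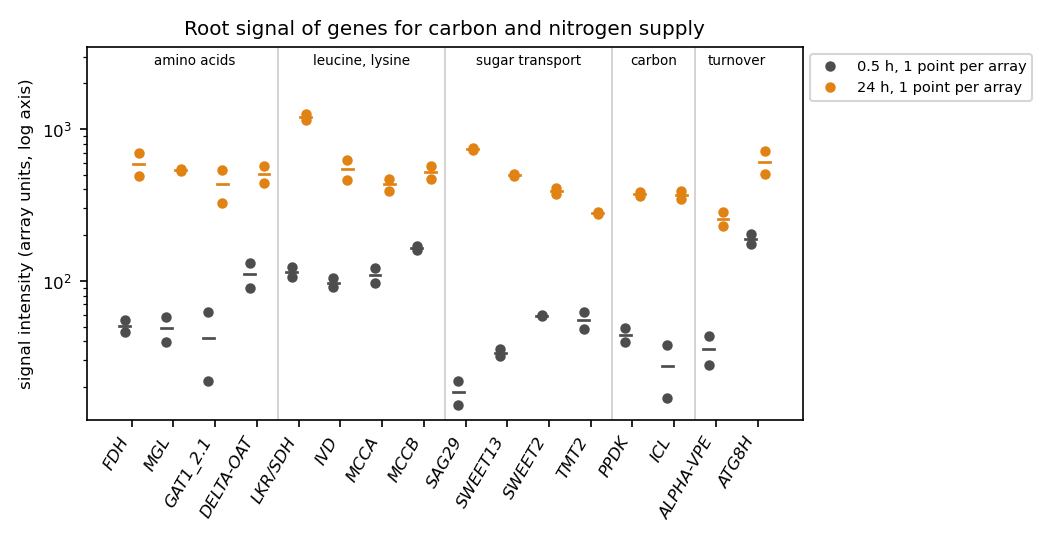
Signal of 16 genes for carbon and nitrogen supply on each root array at 0.5 h (grey) and 24 h (orange), with a bar at the mean of the 2 arrays, on a log axis. For every gene shown both 24 h arrays lie above both 0.5 h arrays, and among them SAG29 has the widest gap (15.1 and 21.9 against 732 and 745). Genes taken by rank were chosen to separate in this way. Both arrays of one time lay above both of the other for 74.2% of all probe sets tested.

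Genes for recycling cell contents were higher too. Autophagy encloses cytoplasm in membranes and delivers it to the vacuole, with ATG8 proteins coating the membrane. Of 11 tested autophagy genes 9 rose and none fell, with a median of 0.80. ATG8H (AT3G06420) had signals of 204 and 176 at 0.5 h and 719 and 502 at 24 h and rose by 1.63 ± 0.23 (adjusted p = 3.6e-05). ATG8B, APG8A and AT5G66930, which encodes ATG101 of the initiating kinase complex, rose by 1.05 ± 0.18, 0.97 ± 0.16 and 0.90 ± 0.13. ATG8D (0.28 ± 0.18) and ATG8G (0.19 ± 0.18) were not called. All 3 tested genes for vacuolar processing enzymes, cysteine proteases that mature vacuolar proteins and take part in cell death, also rose. ALPHA-VPE (AT2G25940) read 43.4 and 28.1 at 0.5 h and 284 and 229 at 24 h, a rise of 2.61 ± 0.34 (adjusted p = 1.5e-05), GAMMA-VPE moved from 638 and 569.9 to 1477 and 1405 (1.24 ± 0.17), and BETA-VPE from 85.5 and 66.2 to 187 and 189 (1.24 ± 0.23).

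Among transporters of the NRT1/PTR family, which carry nitrate, peptides, glucosinolates or hormones, 4 of 9 tested genes rose and none fell, with a median of 0.05. AT2G26690 (NPF6.2) had signals of 43.3 and 57.7 at 0.5 h and 642 and 506 at 24 h and rose by 3.31 ± 0.23 (adjusted p = 3.5e-08). AT3G21670 (NPF6.4) rose by 2.13 ± 0.23, AT1G59740 (NPF4.3) by 1.88 ± 0.20 and AT1G68570 (NPF3.1) by 1.51 ± 0.28. AT3G21670 was weak at 0.5 h, with signals of 15.1 and 9.71, and its change was 1.35 with a pseudocount of 32. The glucosinolate importers GTR1 (-0.09 ± 0.20) and GTR2 (-0.00 ± 0.21) were not called. With the stricter filter on low signal the median of this list was 1.69.

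Sulfur genes went both ways. STR18 (AT5G66170), for a sulfurtransferase, ranked 37 among the rises, with signals of 122.3 and 128 at 0.5 h and 1315 and 1068 at 24 h and a change of 3.16 ± 0.22 (adjusted p = 3.5e-08). Of 4 tested genes for sulfate assimilation, OASA2 (1.66 ± 0.21), annotated as an O-acetylserine (thiol) lyase, and APS4 (1.0 ± 0.18), for an ATP sulfurylase, rose, while APS3 (-0.97 ± 0.18), for another ATP sulfurylase, and SIR (-0.68 ± 0.17), for sulfite reductase, fell. The 2 sulfurylase genes thus moved apart, APS4 from 677.7 and 598 to 1408 and 1166 and APS3 from 141 and 124 to 72.6 and 55.3.

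Chaperone genes and other protective genes rose in part. Of 7 tested heat shock and chaperone genes 4 rose and 1 fell, with a median of 1.33. ATHSP22.0 (AT4G10250), for a small heat shock protein of the endoplasmic reticulum, had signals of 9.73 and 13 at 0.5 h and 416 and 622 at 24 h (4.75 ± 0.35). AT5G48570 (ROF2, an FKBP immunophilin) read 116 and 109.6 at 0.5 h and 436 and 437 at 24 h and rose by 1.88 ± 0.42. Fes1A (1.38 ± 0.30) and Hop3 (1.33 ± 0.30), for cochaperones of HSP70 and HSP90, rose, whereas Hop2 was at 0.14 ± 0.17 (not called) and Hop1 fell by 0.63 ± 0.16. HSA32 (AT4G21320), needed in Arabidopsis to keep acquired heat tolerance, went from 34.6 and 34.3 to 263 and 391 (2.95 ± 0.37, adjusted p = 1.2e-05), and TIL (AT5G58070), for a membrane-associated lipocalin, from 492 and 363 to 2039 and 2213 (2.31 ± 0.21). DI21, named as drought-induced, rose by 0.99 ± 0.23. The list of other stress genes went both ways. Of its 13 tested genes 6 rose, 3 by at least 2-fold, and 4 fell, 1 by at least 2-fold. Its changes ran from -1.16 to 2.95, with a median of 0.50. Of 13 tested genes for protein folding in the endoplasmic reticulum 1 rose and 2 fell. HIS1-3 (AT2G18050), a linker histone gene known to respond to drought and abscisic acid, had signals of 49.3 and 40.6 at 0.5 h and 864 and 901 at 24 h and rose by 4.08 ± 0.24 (adjusted p = 4.3e-09).

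Late embryogenesis abundant (LEA) proteins and dehydrins shield membranes and proteins in drying cells. Of 11 tested genes 3 rose and 2 fell, with a median of 0.17. The share called was 45.5%, near the 40.9% of all probe sets tested. LEA4-5 had signals of 105 and 113 at 0.5 h and 683 and 650.1 at 24 h (2.52 ± 0.37, adjusted p = 5.4e-05), COR15A of 6.89 and 1.82 at 0.5 h and 57.3 and 47.3 at 24 h (2.31 ± 0.51) and LEA18 of 0.338 and 0.355 at 0.5 h and 24.1 and 24.1 at 24 h (1.94 ± 0.40). At 0.5 h both COR15A and LEA18 read below the pseudocount of 8, so the size of their changes depended on it: COR15A stood at 3.49 with a pseudocount of 1 and at 1.21 with 32, and LEA18 at 4.22 and 0.80. LEA18 was not called with a pseudocount of 32 (adjusted p = 0.0546). AT2G46140 (LEA27) fell by 0.86 ± 0.18 (-0.52 without roots 24 h replicate 1), and AT2G44060 (LEA26) was at -0.43 ± 0.15, which was called neither under median scaling (adjusted p = 0.214) nor when any 1 of roots 0.5 h replicate 1, roots 0.5 h replicate 2 and roots 24 h replicate 1 was left out (adjusted p = 0.0607, 0.135 and 0.291). The dehydrin genes LTI30 and COR47 were already bright at 0.5 h, with signals of 2339.9 and 2821 and of 1839 and 2075, and stood at 3511 and 4035 and 2615 and 3289.7 at 24 h. Their changes, 0.55 ± 0.46 and 0.58 ± 0.25, were not called (adjusted p = 0.364 and 0.0724). No array of one time overlapped the other for these 2 genes, which held for 74.2% of all probe sets tested. In a fit of the 12 root arrays alone both were called (adjusted p = 0.0101 and 0.028), and the list then had 5 rises.

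The signals of these genes followed different courses between 0.5 h and 24 h. The mean signal of SAG29 in roots passed from 24.4 at 1 h through 105 at 3 h to 324 at 12 h, and it was highest at 24 h, with 739. SWEET13 stayed between 32.3 and 99.0 until 12 h, and most of its rise fell between 12 h and 24 h. SWEET2 had reached 285 at 3 h, and ICL stood at 752 at 12 h, above its mean of 368 at 24 h. LEA4-5 stood at 692 at 1 h and 1165 at 3 h, and its mean at 24 h was 667. COR27, a cold-regulated gene with a daily rhythm, went from 1.29 at 0.5 h through 154 at 6 h to 23.1 at 24 h, and its 24 h change was 1.72 ± 0.25 (3.39 with a pseudocount of 1 and 0.72 with one of 32). The samples between these times came from other hours of the day, so time in mannitol and hour of the day cannot be told apart there. GI, a clock gene that peaks late in the day, had signals of 195 and 188 at 0.5 h and 277 and 239 at 24 h, a rise of 0.41 ± 0.13 (adjusted p = 0.0172) that missed the threshold when roots 0.5 h replicate 1, roots 0.5 h replicate 2 or roots 24 h replicate 1 was left out (adjusted p = 0.053, 0.0921 and 0.158), and XCT, another gene tied to the clock, was at 0.04 ± 0.24.

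**Figure D3:**
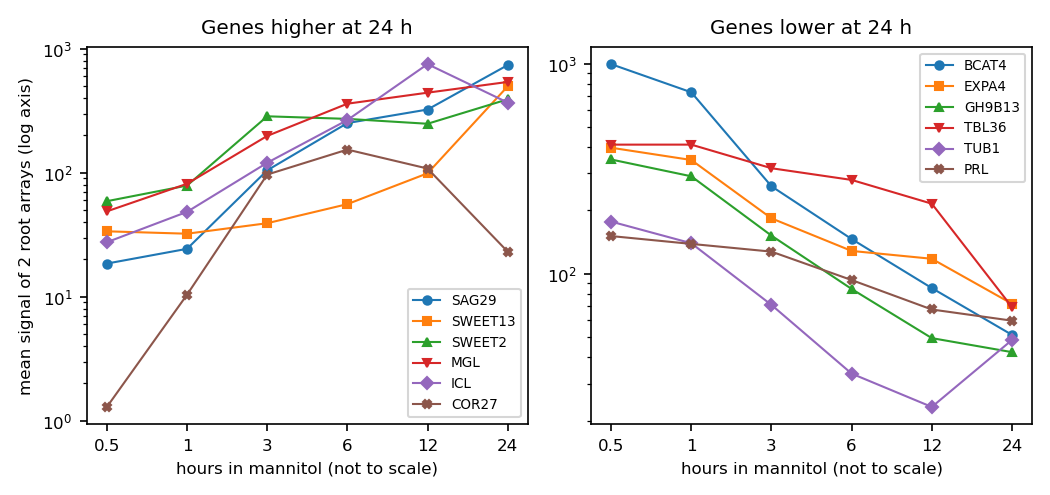
Mean signal of 2 root arrays at each time in mannitol for 6 genes higher at 24 h (left) and 6 genes lower at 24 h (right), on log axes, with the times evenly spaced. SWEET13 rises mainly after 12 h, COR27 is highest at 6 h, and TUB1 is lowest at 12 h with part of its signal back at 24 h.

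Wall-loosening genes held some of the widest falls. Expansins loosen the bonds between wall polymers and let cells extend. Of 15 tested expansin genes (19 named) 8 fell, 7 of them by at least 2-fold, and 2 rose, with a median of -0.98, against 23.8% of all probe sets lower. EXPB3 (AT4G28250) had signals of 238 and 172 at 0.5 h and 16.7 and 23.9 at 24 h (-2.91 ± 0.28), EXPA4 (AT2G39700) of 460.4 and 335 at 0.5 h and 50.0 and 93.8 at 24 h (-2.38 ± 0.27, adjusted p = 5.0e-06) and EXPA15 (AT2G03090) of 217 and 213 at 0.5 h and 43.9 and 49.3 at 24 h (-2.03 ± 0.21). EXPB1 fell by 1.75 ± 0.25, from 45.6 and 51.6 to 5.20 and 13.3. The 2 rises were those of the expansin-like genes EXLB1, from 121 and 134 to 1868 and 1427 (3.6 ± 0.32, adjusted p = 4.5e-07), and EXLA2 (1.21 ± 0.26); the expansin-like proteins are set apart from them by sequence. EXPA7 (-0.68 ± 0.47) and EXPA18 (-0.12 ± 0.42), which mark root hair cells, were not called, and their 24 h arrays differed widely, EXPA18 reading 27.1 and 79. Without roots 0.5 h replicate 1, 5 expansin genes were lower. The list's median was -0.38 without roots 24 h replicate 1 and -0.56 without roots 0.5 h replicate 2.

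Endoglucanases of family GH9 cut or trim glucan chains of the wall. Of 8 tested genes (15 named) 5 fell, each by at least 2-fold, and none rose, with a median of -1.16 (-1.98 with the stricter filter). GH9B13 (AT4G02290) had signals of 329 and 371 at 0.5 h and 45.6 and 39 at 24 h (-2.83 ± 0.26) and GH9C2 (AT1G64390) of 568 and 502 at 0.5 h and 72.1 and 115 at 24 h (-2.45 ± 0.25, adjusted p = 1.7e-06). GH9B8 fell by 1.98 ± 0.19 and GH9C3 by 1.17 ± 0.22, and GH9C1 was not called (-0.59 ± 0.41): its 24 h arrays read 26.8 and 113, and without roots 24 h replicate 2 it was called at -1.49. Xyloglucan endotransglucosylases cut and rejoin the hemicellulose that ties cellulose fibrils. Of 7 tested, 3 fell and 1 rose. XTH20 (AT5G48070) read 99.5 and 124 at 0.5 h and 14.7 and 15.2 at 24 h, a fall of 2.37 ± 0.26 (adjusted p = 2.6e-06), while EXGT-A3 (AT2G01850), also known as XTH27, moved from 138 and 142 to 319.6 and 332 (1.17 ± 0.16). XTH20 was the 1 gene of this list still lower without roots 0.5 h replicate 2, since XTH16 (adjusted p = 0.0812) and XTH32 (adjusted p = 0.142) then missed the threshold. Both also missed it without roots 24 h replicate 2 (adjusted p = 0.17 and 0.175).

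SKU5, for a wall-associated protein that guides the direction of root growth, read 746 and 797 at 0.5 h and 273 and 316 at 24 h and fell by 1.37 ± 0.23 (adjusted p = 0.00018). Its relatives sks15 (-1.82 ± 0.55) and sks16 (-1.30 ± 0.34) were called as well, but their 24 h arrays differed, sks15 reading 4.37 and 53.1, and neither was called without roots 24 h replicate 1 (changes -0.67 and -0.57). Without roots 24 h replicate 2 they were at -2.97 and -2.04, and sks15 was not called without roots 0.5 h replicate 2 (adjusted p = 0.11). Of 4 tested pectin genes, PME61 (AT3G59010), for a pectin methylesterase, rose by 2.07 ± 0.27, from 16.7 and 12.6 to 113 and 66.7, and GAUT15, of a family that builds pectin, fell by 0.70 ± 0.18.

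Genes that make or acetylate wall polysaccharides were mostly lower or not called. TBL proteins transfer acetyl groups to wall polymers, and CSL proteins build hemicellulose chains. Of 29 tested genes (36 named) 14 fell and 1 rose, with a median of -0.54. TBL36 (AT3G54260) had signals of 429 and 394 at 0.5 h and 78.7 and 60.05 at 24 h and fell by 2.45 ± 0.24 (adjusted p = 8.7e-07), apart from the rest of the list. CSLA03 (glucomannan synthesis), TBL35 and TBL34 changed by -1.08 ± 0.24, -1.03 ± 0.19 and -0.90 ± 0.20; CSLA03 narrowly missed the threshold without roots 24 h replicate 1 (-0.67, adjusted p = 0.0513). IRX15, needed for xylan in secondary walls, was the 1 gene called higher, at 1.17 ± 0.38, with 24 h arrays at 25 and 57.1, and it missed the threshold when roots 24 h replicate 2 or roots 0.5 h replicate 2 was left out (adjusted p = 0.249 and 0.138). Under median scaling, and without roots 0.5 h replicate 2, 9 genes of the list were lower.

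Genes for tubulin, which forms the microtubules that guide cellulose deposition and separate chromosomes, were lower in most cases. Of 8 tested tubulin and actin genes 6 fell and 1 rose, with a median of -0.87. TUB1 read 149 and 205 at 0.5 h and 27.2 and 69.4 at 24 h (-1.81 ± 0.35, adjusted p = 0.00057) and TUB5 read 163 and 231 at 0.5 h and 37.6 and 84.1 at 24 h (-1.64 ± 0.27); in both, the 24 h arrays differed by over 2-fold but stayed below the 0.5 h arrays. TUA6 changed by -0.90 ± 0.18 and TUB7 by -0.88 ± 0.17. TUA1, a tubulin gene best known from pollen, rose by 0.94 ± 0.20, and TUB9 was not called (-0.31 ± 0.13). The mean signal of TUB1 in roots was 23.2 at 12 h, lower than at 24 h (48.3).

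**Figure D4:**
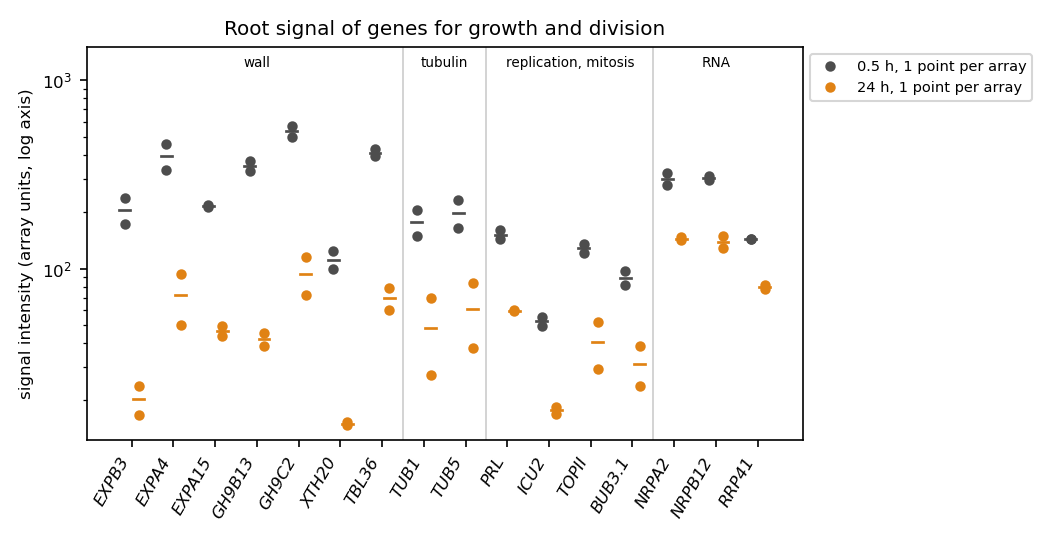
Signal of 16 genes for walls, tubulin, DNA replication, mitosis and RNA on each root array at 0.5 h (grey) and 24 h (orange), with a bar at the mean of the 2 arrays, on a log axis. Both 24 h arrays lie below both 0.5 h arrays for every gene shown, and the 24 h arrays of TUB1 lie far from each other (27.2 and 69.4). Genes taken by rank were chosen to separate in this way. Both arrays of one time lay above both of the other for 74.2% of all probe sets tested.

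Division genes fell without a rise. Of 13 tested genes of the cell cycle 10 were lower, with a median of -0.71, and of 14 tested genes of DNA replication and repair (23 named) 10 were lower, with a median of -0.74. PRL, for the helicase subunit MCM7, and TOPII, for topoisomerase II, belong to both lists. PRL (AT4G02060) had signals of 143 and 159 at 0.5 h and 59.5 and 59.99 at 24 h and fell by 1.23 ± 0.21 (adjusted p = 0.00018). TOPII read 121 and 135 at 0.5 h and 51.9 and 29.2 at 24 h (-1.52 ± 0.40) and was not called without roots 24 h replicate 2 (adjusted p = 0.0737). ICU2 (AT5G67100), for the catalytic subunit of DNA polymerase alpha, read 49.3 and 55.4 at 0.5 h and 17 and 18.4 at 24 h, a fall of 1.23 ± 0.15, and ASF1B, for a histone chaperone of replication, fell by 1.24 ± 0.22. In mitosis, BUB3.1 (AT3G19590) of the spindle checkpoint read 81.8 and 97.1 at 0.5 h and 38.8 and 23.7 at 24 h (-1.33 ± 0.18) and AUR2, for an Aurora kinase, read 85.3 and 103 at 0.5 h and 34.6 and 30.8 at 24 h (-1.32 ± 0.28). SIM (-0.32 ± 0.18), for an inhibitor of cyclin-dependent kinases, CDC27a (-0.48 ± 0.30) and KINESIN-12B (-0.67 ± 0.27) were not called, nor were the repair genes RAD4 (-0.14 ± 0.24) and ATLIG4 (-0.23 ± 0.19). The 2 medians were -0.418 and -0.443 with a pseudocount of 32, and -1.17 and -1.23 with the stricter filter on low signal, which left 4 lower genes in the replication list. Without roots 0.5 h replicate 2, and without roots 24 h replicate 2, 6 genes of the cell cycle list were lower, and without roots 24 h replicate 2, 5 genes of the replication list were.

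Of 7 tested histone genes 3 were lower and 2 higher, with a median of -0.26. Among the core histone genes, whose RNA rises in DNA replication, HTB1 moved from 226 and 272 to 116 and 121 (-1.02 ± 0.17) and HTB2 from 208 and 206 to 106 and 75.5 (-1.14 ± 0.26), both for histone H2B, and HTR12, for the histone H3 of centromeres, was at -0.70 ± 0.19 (adjusted p = 0.0517 without roots 0.5 h replicate 2). HTB4, for another H2B, was not called (-0.10 ± 0.15), with signals of 509 and 511 at 0.5 h and 465 and 483 at 24 h. The higher genes were HIS1-3, for a linker histone, and HON4, with signals of 180.4 and 211 at 0.5 h and 246 and 271 at 24 h (0.39 ± 0.15, adjusted p = 0.0493). HON4 was not called when any 1 of the 4 root arrays was left out, with adjusted p = 0.0594 at the lowest and 0.271 at the highest.

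Genes for making RNA and ribosomes were lower as well. Of 10 tested RNA polymerase subunit genes 9 were lower, with a median of -0.95. NRPA2 (AT1G29940), for the second-largest subunit of polymerase I, which transcribes ribosomal RNA, read 277 and 320.3 at 0.5 h and 141 and 147 at 24 h (-1.01 ± 0.15, adjusted p = 5.0e-05). NRPB12 (AT5G41010) and NRPB9B, for small subunits of polymerase II, fell by 1.09 ± 0.14 and 1.12 ± 0.24, NRPB12 from 297 and 311 to 128 and 149.7, and NRPE7, for a subunit of polymerase V, fell by 1.17 ± 0.18. NRPB6A was not called (-0.24 ± 0.12). All 5 tested genes of ribosome assembly and RNA processing fell, with a median of -0.80. Among them, RRP41, a core gene of the RNA exosome, moved from 144 and 144 to 77.9 and 81.6 (-0.79 ± 0.14), RRP41L by -0.80 ± 0.19, and the RNA helicase genes RH39 and AT3G09720 (RH57) by -0.81 ± 0.17 and -0.90 ± 0.18.

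Glucosinolates are sulfur-rich defence compounds, in part built from methionine, and 2 of 6 tested genes for making or moving them fell. BCAT4 (AT3G19710), for the aminotransferase that takes methionine into chain elongation, had signals of 960.5 and 1028 at 0.5 h and 56.8 and 45.5 at 24 h (-4.09 ± 0.29), and its mean in roots was 261 at 3 h and 85.4 at 12 h. GSTU20 (AT1G78370), a glutathione transferase gene tied to the same pathway, read 169 and 131 at 0.5 h and 7.01 and 2.78 at 24 h (-3.62 ± 0.45, and -2.30 with a pseudocount of 32). The other 4 were not called, with UGT74B1, for the glucosyltransferase of a late step, at 0.20 ± 0.22 and AOP1 at -0.28 ± 0.19, beside the transporter genes GTR1 and GTR2 given above. Of 13 tested glutathione transferase genes 5 fell and 3 rose. ATGSTF13 (-1.84 ± 0.22), GSTU23 (-1.44 ± 0.18) and GSTU22 (-1.0 ± 0.21) fell, while GSTU16, from 18.8 and 15 to 80.6 and 71.3 (1.76 ± 0.16), GSTU18 (1.21 ± 0.17) and GSTL3 (0.84 ± 0.10) rose.

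Genes for defence proteins and secreted enzymes also went both ways. ChiC (AT4G19810), for a class V chitinase, had signals of 125 and 95.7 at 0.5 h and 807 and 515 at 24 h and rose by 2.47 ± 0.30 (adjusted p = 7.4e-06). PR-1-LIKE (AT2G19990), of the pathogenesis-related family 1, read 270.2 and 130.3 at 0.5 h and 31.9 and 23.1 at 24 h and fell by 2.48 ± 0.39 (adjusted p = 0.00011), and the defensin gene PDF2.5 fell by 1.81 ± 0.33 (-1.19 without roots 24 h replicate 1). OSM34, an osmotin-like gene, stood at 1521 and 1475 at 0.5 h and 3677 and 3210.3 at 24 h and was not called (1.19 ± 0.55, adjusted p = 0.0927). Its times did not overlap, which held for 74.2% of all probe sets tested. In a fit of the 12 root arrays alone OSM34 was called (adjusted p = 8.9e-05). In all 4 of 14 tested genes rose and 3 fell; without roots 0.5 h replicate 2, 2 rose. The subtilase gene SBT4.12 (AT5G59090) read 344 and 586 at 0.5 h and 45.0 and 157 at 24 h and fell by 2.29 ± 0.43 (-1.47 without roots 24 h replicate 1). Of 21 serine carboxypeptidase-like genes 8 fell and 3 rose, with scpl31 at 169.7 and 107 at 0.5 h and 25 and 18.5 at 24 h (-2.27 ± 0.21) and scpl48 at 317 and 270.0 at 0.5 h and 1667 and 980.1 at 24 h (2.1 ± 0.20); without roots 24 h replicate 1, 5 fell and 1 rose.

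Among beta-glucosidases, which release sugars or active compounds from glucosides, 5 of 14 tested genes (22 named) rose and 2 fell. BGLU24 (AT5G28510) had signals of 24.3 and 20.3 at 0.5 h and 846 and 922 at 24 h (4.88 ± 0.36), BGLU16 (AT3G60130) of 203 and 237 at 0.5 h and 833 and 703 at 24 h (1.77 ± 0.17, adjusted p = 8.5e-07), and BGLU40 rose by 1.38 ± 0.19. BGLU44 fell by 1.24 ± 0.23 and BGLU42 by 0.97 ± 0.16, and PYK10, by far the brightest, was not called, with signals of 3060.0 and 3494 at 0.5 h and 3723 and 3721 at 24 h (0.19 ± 0.17). FACT (AT5G63560), whose product joins caffeic acid to fatty alcohols of root waxes, had signals of 278 and 221 at 0.5 h and 1159 and 1188 at 24 h and rose by 2.21 ± 0.19 (adjusted p = 3.2e-07), and HCT, of lignin monomer synthesis, rose by 0.83 ± 0.15, from 601 and 602 to 1013 and 1135. Of 6 tested class III peroxidase genes 1 rose and 3 fell, with a median of -0.56. PRX52 moved from 28.9 and 22.7 to 91.6 and 251 (2.26 ± 0.42), with 24 h arrays far apart, while AT2G41480 (PRX25) fell by 1.15 ± 0.18, from 431 and 325 to 174 and 154.

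Genes of the endoplasmic reticulum body, protein tagging and sugar conjugation were mixed. The jacalin-type lectin gene JAL22 (AT2G39310), whose product belongs to the PYK10 complex, had signals of 425 and 448 at 0.5 h and 1188 and 1032 at 24 h and rose by 1.33 ± 0.18; JAL33 was the other riser of 7 tested genes of its list, at 1.08 ± 0.34, but missed the threshold when roots 0.5 h replicate 1 or roots 24 h replicate 1 was left out (adjusted p = 0.0966 and 0.103). Of 40 tested genes for ubiquitin conjugation and the proteasome 5 rose and 9 fell (5 without roots 0.5 h replicate 2). In the main fit 35% of this list was called, against 40.9% of all probe sets tested. UBC32 (AT3G17000), for a ubiquitin-conjugating enzyme of the endoplasmic reticulum, read 103 and 89.4 at 0.5 h and 282 and 295 at 24 h (1.51 ± 0.18). UBC20, for a conjugating enzyme tied to cell division, read 215 and 228 at 0.5 h and 81.8 and 70.3 at 24 h (-1.45 ± 0.21). UDP-glycosyltransferases attach sugars to hormones and secondary products. Of 40 tested genes 11 rose and 3 fell, so 35% were called, against 40.9% of all probe sets tested. UGT87A2 moved from 212 and 139 to 853 and 556 (1.95 ± 0.26), GT72B1 (UGT72B1) from 203 and 146 to 433 and 463 (1.34 ± 0.18), and UGT72E1, for an enzyme that conjugates lignin precursors, from 448 and 399 to 111.04 and 152 (-1.64 ± 0.33). When either roots 0.5 h replicate 2 or roots 24 h replicate 1 was left out, 6 of these genes rose.

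Signalling genes showed small sets of changes. MYC3 (AT5G46760), for a transcription factor of the jasmonate response, had signals of 97.3 and 83.6 at 0.5 h and 220.1 and 226 at 24 h and rose by 1.23 ± 0.16 (adjusted p = 1.5e-05), and OPCL1, for an enzyme of jasmonate synthesis, fell by 1.19 ± 0.24, from 226 and 170.4 to 82.7 and 80.5. OPCL1 was the 1 gene that fell among 10 tested on the jasmonate list. On that list 4 genes rose, 3 of them by at least 2-fold, and the median was 0.32. EIN3, for the main transcription factor of the ethylene response, rose by 0.65 ± 0.11. Among RALF peptide genes, whose products are secreted growth signals, RALFL32 moved from 242 and 221 to 593 and 659 (1.40 ± 0.20) and RALFL34 from 167 and 198 to 72.6 and 59.4 (-1.37 ± 0.18). CML37, for a calmodulin-like calcium sensor, moved from 70.3 and 53.1 to 17.6 and 12.6 (-1.59 ± 0.30; -0.99 with a pseudocount of 32). Of 13 tested IQD genes, whose calmodulin-binding products often sit on microtubules, 7 fell and none rose, with a median of -0.61. IQD26 read 58.1 and 70.6 at 0.5 h and 19.5 and 19.1 at 24 h (-1.40 ± 0.24; -0.91 with a pseudocount of 32) and IQD31 read 245 and 242 at 0.5 h and 114 and 127 at 24 h (-0.97 ± 0.12). The count of lower IQD genes was 3 without roots 0.5 h replicate 2 and with the stricter filter, and 4 with a pseudocount of 1. In the main fit no gene was called among 8 for chlorophyll and plastid pigments or 8 of cytokinin, gibberellin and brassinosteroid. The same held for 4 of suberin, cutin and wax, a list without FACT whose highest change was 0.45. At an unadjusted p under 0.05 limma gave 3 lower, 0 and 1 higher in these lists, in this order. Quantile normalization gave 1 lower pigment gene and 1 higher gene of suberin, cutin and wax. Median scaling gave 1 higher gene in each of the other lists than that of pigments. A fit of the 12 root arrays alone gave 2 lower pigment genes.

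Nuclear photosynthesis genes were weak in roots and mostly rose from that low level. Of 14 tested nuclear genes 12 rose and none fell, with a median of 0.82. RCA, for Rubisco activase, had signals of 81.1 and 79.9 at 0.5 h and 352 and 278 at 24 h (1.86 ± 0.15), PSAE-1, of photosystem I, of 40.1 and 33.9 at 0.5 h and 154 and 112 at 24 h (1.63 ± 0.18), and PGRL1B, of cyclic electron flow, moved from 40.3 and 37.6 to 86.7 and 86.4 (1.01 ± 0.15). LIL3:1 (0.32 ± 0.18) and LIL3:2 (0.29 ± 0.14), for light-harvesting-like proteins, were not called. Related lists rose less. Of 17 tested genes of thylakoid assembly 5 rose, 1 fell and 11 were not called, with a median of 0.26. The 8 tested genes for chlorophyll and plastid pigments had a median of -0.16, with 0 called in the main fit. Of 27 markers of green tissue 5 were named and tested (LHCB4.1, LHCB4.2, RCA, PRK and SBPASE), and all 5 rose. Their summed signal was 268 and 285 on the root arrays at 0.5 h and 810 and 623 at 24 h, which is 1.27% and 1.35%, and then 3.84% and 2.95%, of the mean sum of the shoot arrays at 0.5 h. None of the 5 was at 0, the lowest reading being 15.7. Their part in the rise of the nuclear photosynthesis list was not tested. Without roots 24 h replicate 1, LHCB4.2, PRK and SBPASE were not called (adjusted p = 0.096, 0.0922 and 0.19). LHCB4.2 also missed the threshold without roots 0.5 h replicate 2 (0.0592), and PRK and SBPASE did without roots 0.5 h replicate 1 (0.0525 and 0.13).

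The 69 tested chloroplast-encoded genes had a median change of 0.01, with 10 higher and 6 lower. That is 23.2% called, against 40.9% of all probe sets tested. The 10 higher genes all encode subunits of photosystems, of the cytochrome b6f complex or of the NDH complex, led by psbZ (0.72 ± 0.18), psbM (0.66 ± 0.21), psbF (0.56 ± 0.12) and ndhE (0.55 ± 0.20). The 6 lower genes all encode ribosomal proteins or subunits of the plastid RNA polymerase, led by rpoC2 (-1.05 ± 0.21), rps15 (-0.76 ± 0.24), rps2 (-0.72 ± 0.17) and rpoC1 (-0.64 ± 0.16). rpoC2 read 206 and 216 at 0.5 h and 88.1 and 108 at 24 h. Calls of single genes were lost when an array was left out: psbZ and psbM without roots 0.5 h replicate 2 (adjusted p = 0.0786 and 0.167), psbM and ndhE without roots 24 h replicate 1 (0.171 and 0.364), ndhE and rps15 without roots 0.5 h replicate 1 (0.236 and 0.0833), and rps15 without either of roots 0.5 h replicate 2 and roots 24 h replicate 2 (0.0657 and 0.131). This grouping was seen after the values, and the counts were unstable: 3 genes were higher when either roots 0.5 h replicate 1 or roots 24 h replicate 1 was left out, and 6 without roots 0.5 h replicate 2. Leaving out roots 0.5 h replicate 1, roots 0.5 h replicate 2 or roots 24 h replicate 2 left 3 lower genes in each case, as did median scaling, while quantile normalization gave 11 lower. Plastid RNAs lack the long poly(A) tails of nuclear messages, and their labelling was not tested.

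Roots were then set beside shoots, where 58.6% of probe sets were called between the same times, 25.5% higher and 33.2% lower. The difference of the 2 changes was tested in the same fit, and 35.4% of probe sets passed, 18.0% with the root change above the shoot change and 17.4% below it. Differences of at least 2-fold were called for 11.7% of probe sets with the root change above and for 9.84% with it below. For the LEA and dehydrin list the root change lay below the shoot change in all 11 tested genes. In shoots all 11 rose, with a median of 1.78. The summed signal of the list's 13 named genes, in which bright genes such as LTI30 and COR47 weigh most, began higher in roots. At 0.5 h it was 7945 and 9126 on the root arrays, against a mean of 2953 in shoots. At 24 h it was 9665 and 11632, against 19212. In roots the median change from 0.5 h was 0.89 at 3 h and 0.17 at 24 h. The part of the starting level in the difference was not tested. LTI30 changed by 6.87 ± 0.46 in shoots, a difference of -6.32 ± 0.65 between the tissues (adjusted p = 1.6e-06), and LEA4-5 by 8.11 ± 0.37, a difference of -5.59 ± 0.53 (adjusted p = 6.9e-07). Of the 14 nuclear photosynthesis genes 13 changed further up in roots, and 12 fell in shoots. Of 16 sugar transporter genes 8 had the higher change in roots and 1 the lower. SWEET2 rose in roots and fell in shoots, where its change was -1.21 ± 0.24, a difference of 3.78 ± 0.34 (adjusted p = 4.9e-07). In shoots 11 of the 13 cell cycle genes fell, and the difference between the tissues passed for 2: PRL fell further in shoots (-2.15 ± 0.21), and AUR2 fell in roots but was at 0.04 ± 0.28 in shoots.

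Opposite calls in both tissues, with the difference called as well, were made for 609 probe sets (3.62%), of which 378 were higher in roots and lower in shoots and 231 the reverse. Of the 609, 285 named 1 gene, and the widest differences given here and in the next paragraph were ranked among those. Taken by the root change minus the shoot change, the widest difference with roots lower and shoots higher was that of PUB19 (AT1G60190), for a ubiquitin ligase of abscisic acid and drought responses: its root arrays read 541 and 492 at 0.5 h and 173 and 225 at 24 h (-1.35 ± 0.25), while its mean in shoots went from 22.6 to 736 (4.59 ± 0.25; adjusted p of the difference = 1.7e-08). APL4, for a subunit of the enzyme that starts starch synthesis, went from a mean of 12.2 to 767 in shoots (5.25 ± 0.22) and stayed weak in roots, with signals of 12.1 and 17.1 at 0.5 h and 6.94 and 6.17 at 24 h (-0.63 ± 0.22; adjusted p of the difference = 4.3e-09). Its fall in roots was called neither with a pseudocount of 32 (adjusted p = 0.183) nor under median scaling (0.0829), nor when roots 0.5 h replicate 2, roots 24 h replicate 1 or roots 24 h replicate 2 was left out (adjusted p = 0.213, 0.0805 and 0.115). AT2G46940 (-1.15 in roots and 3.11 in shoots), AT1G72240 (-1.57 and 2.02) and AT5G37540 (-1.13 and 2.32) followed, and AT2G46940 was not called in roots without roots 24 h replicate 1 (adjusted p = 0.0738).

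The widest difference with roots higher and shoots lower, by the same measure, was that of AT1G33055, whose root signals were 219.7 and 305 at 0.5 h and 1285 and 1396 at 24 h (2.34 ± 0.46) and whose mean in shoots went from 253 to 20.8 (-3.17 ± 0.46; adjusted p of the difference = 5.5e-06). AT2G20670 (2.06 in roots and -2.49 in shoots), AT5G14120 (1.43 and -3.04), AT4G27450 (1.62 and -2.66) and AT4G10270 (1.63 and -2.63) came next. The annotation used here gives no function for these 5. In roots the mean signal of AT1G33055 stood at 2040.3 at 3 h, and that of AT4G27450 at 2617, both above their means at 24 h (1340.4 and 2551). ASPGB1, the asparaginase gene, also differed between tissues, with -1.53 ± 0.28 in shoots (adjusted p of the difference = 1.1e-05).

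**Figure D5:**
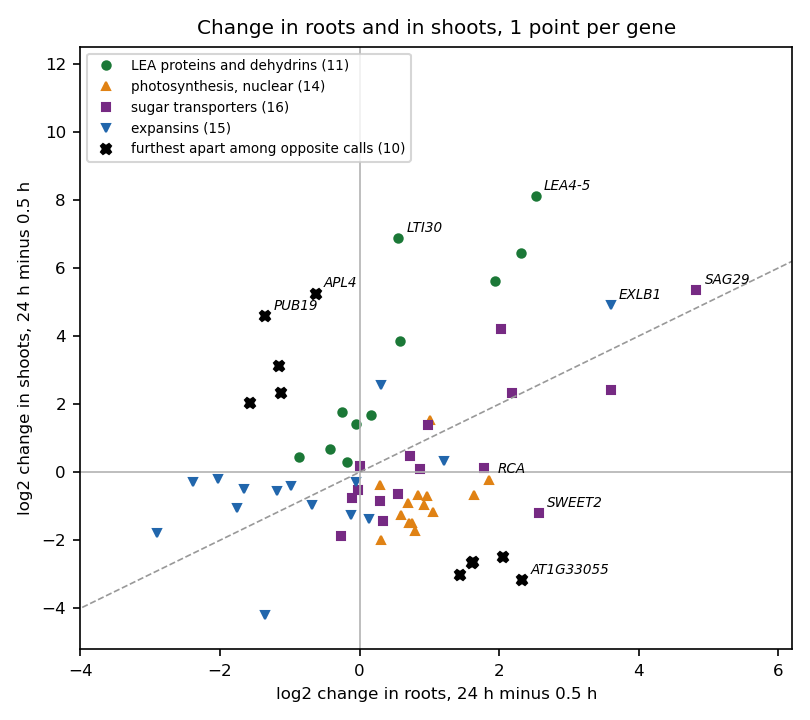
Log2 change between 0.5 h and 24 h in mannitol in roots (horizontal axis) and in shoots (vertical axis), 1 point per gene, for 4 lists and for the 10 genes with opposite calls that differed most, with a dashed line where both changes are equal. Those 10 were ranked among probe sets naming 1 gene. The 11 LEA and dehydrin genes all lie above that line, LTI30 at 0.55 in roots and 6.87 in shoots, and most photosynthesis genes lie right of 0 and below it.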

How the data were processed

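The series measured RNA on 24 Affymetrix ATH1 arrays, each hybridised with 1 sample. The deposited values are linear signal intensities per probe set, made by the authors with MAS5 per the submitters' processing notes; its version and settings were not given in the sources used here. Summaries of this kind subtract background and scale whole arrays, so weak signals are noisy and a shift of all genes cannot be measured.

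Of 22810 probe sets, 64 controls were left out. Names came from the platform annotation and the TAIR10.1 gene table: 13513 probe sets named 1 gene, 503 several and 8730 none, and 13436 of the first matched the table. Sequences are not shown.

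Values were taken as log2(signal + 8). The test covered the 16814 probe sets whose signal, on 2 or more of the 24 arrays, passed the 40th percentile of the array. limma 3.58.1 in R 4.3.3 fitted 12 group means with a variance trend, and p-values were adjusted by Benjamini-Hochberg over all tested; the fit was tested on simulated data. The contrasts were 24 h minus 0.5 h in roots, the same in shoots, and their difference. Replicate numbers were shared between groups, and the labels do not say whether they pair samples. Deviations of same-numbered arrays correlated at 0.093 between the root groups, and at -0.165 to 0.349 over all pairs of groups. The main fit used no block. Replicates correlated at 0.979 to 0.986, and the number of arrays limits the precision.

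Genes named in the text are those of ranks 1 to 40 each way with both arrays of one time beyond both of the other, up to 4 called members of each list in each direction, members not called, markers, and the 5 genes each way with opposite calls in roots and shoots that differed most. The ranks and the 5 genes each way were taken only from probe sets naming 1 gene, 9206 of those tested. The members and the lists were chosen with earlier results of these data known, and lists were drawn by gene name. Alternatives changed the pseudocount, the filter, the scaling, the arrays in the fit and the replicate block, and left out each root array in turn.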

Additional observations from a re-analysis of the deposited data

Results flagged for a closer look

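The changes in roots and in shoots differed, by limma's test of the difference with each gene also called in opposite directions in the 2 tissues, for 609 probe sets. The 10 genes with the widest differences among the 285 of these that named 1 gene are given as the root change minus the shoot change on the log2 scale. Lower in roots and higher in shoots were PUB19 (-5.94), APL4 (-5.88), AT2G46940 (-4.26), AT1G72240 (-3.59) and AT5G37540 (-3.45). APL4 was weak in roots, and its fall there was called neither with a pseudocount of 32 nor under median scaling. The root change of AT2G46940 was -1.15, and -0.89 without roots 24 h replicate 1. Higher in roots and lower in shoots were AT1G33055 (5.51), AT2G20670 (4.55), AT5G14120 (4.47), AT4G27450 (4.28) and AT4G10270 (4.27).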

How the results depend on the processing

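Of the counts over all probe sets in roots, 2 moved by more than 1.5 times: falls of at least 2-fold numbered 603 with a pseudocount of 32, and 2621 probe sets were lower without roots 0.5 h replicate 2. Settings that kept all arrays gave between 5929 and 7229 called probe sets, the lowest with the stricter filter, which tested 13007. The share of calls that were higher was 41.7%, against 57.7% under median scaling and 47.8% under quantile normalization. With the replicate number as a block (replicate block) 6894 were called, and with 4 arrays and the block 6804, against 6878. Whether the numbers pair samples is not known.

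Leaving out 1 root array gave 4611 to 5319 called probe sets in roots, of which 1990 to 2301 were higher and 2621 to 3018 lower. Those of at least 2-fold were 961 to 1150 higher and 1113 to 1321 lower. For the difference between tissues, leaving out 1 root or 1 shoot array of these times gave 4812 to 5538 called, 2452 to 2931 higher and 2320 to 2663 lower, with 1769 to 2159 and 1517 to 1711 of at least 2-fold. No called change of a named gene turned sign under these settings. Changes of some named genes that were not called did, among them PEX4 and other reference genes under median scaling and, without roots 24 h replicate 1, EXPA7 at 0.02 and GH9C1 at 0.31. List medians close to 0 did too, among them those of the chloroplast-encoded genes, of fermentation and glycolysis and of the reference genes. Genes whose calls rested on 1 array are given with that value in the text. A larger pseudocount shrinks the changes of weak genes by its construction. With 2 arrays per time, small changes of weak probe sets are the least certain. The cause of the moved counts was not tested.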
